A study of Mus musculus with 18 samples.

Results

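The interferon-stimulated genes examined here are a list of 40 mouse genes whose transcription is switched on by interferons. Members were the probe sets of the array annotated to exactly 1 listed gene, which left 38 of the 40 genes and 59 probe sets among 18193 genes measured by single-gene probe sets. Expression was measured in 18 arrays of left ventricle from 3- to 4-month-old female wild type C57Bl/6 mice, with 3 arrays in each of 6 groups. The groups were 7 days of voluntary wheel running (7Ex), 21 days of running (21Ex), mid-pregnancy at gestation day 11 (MP), late pregnancy at days 18 to 19 (LP), within 12 hours after delivery (0PP), and the shared control of sedentary, non-pregnant virgin females at diestrus (Sed/NP). Each array held RNA pooled from 2 to 3 hearts, so an array stands for a pool and not for an animal, and nothing in the sources used here ties an array to a cage, a day or a litter.

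Interferons are cytokines released when cells detect viral or misplaced nucleic acid. Type I interferons signal through the Ifnar1 and Ifnar2 receptor chains and the Jak1 and Tyk2 kinases to a complex of Stat2, Irf9 and a partner STAT protein, which binds the interferon-stimulated response element in target promoters. Interferon gamma uses the Ifngr1 and Ifngr2 chains and the gamma-activated site instead, and it is the stronger inducer of the p47 and p65 GTPases and of antigen-processing genes. In heart muscle the same genes are known from viral myocarditis, from infarction and from resident macrophages.

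The values were log2 intensities after robust multiarray averaging (RMA), a scale on which a difference of 1 is a doubling. Where a gene had several probe sets it was represented by the one with the highest mean over the 18 arrays, a choice that does not depend on any comparison. Of the 38 representatives, 36 had a mean of at least 5, close to the array median of 4.93 to 5.02, and the exceptions, Oas3 at 4.48 and Mx1 at 4.06, were near the floor of the scale. Mx1 encodes an antiviral GTPase that is known to be defective in common inbred strains such as C57BL/6. Isg15, which encodes the ubiquitin-like protein of the pathway, was represented only by a probe set shared with Gm9706, and no probe set was annotated to Ifi44, so neither gene has a value here.

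What the members share outside the list was looked for in their promoters, taken from RefSeq (GRCm38.p6) as 250 bases before to 50 bases after the transcription start. A promoter was held for 29 of the 40 genes. The core of the interferon-stimulated response element, searched as GAAA, any 2 bases and GAAA again, occurred on either strand in 16 of these 29 genes (55.2%), against 3.99% of all 27025 genes with a promoter in the table. The gamma-activated site letters TTCNNNGAA, which read the same on both strands, occurred in 7 of the 29 (24.1%), against 9.55% of all genes, and Bst2, Eif2ak2, Igtp and Oas1a held both. The windows below belong to the 4 genes with the largest SD within a group among those with a promoter to show (that of Iigp1, which ranked second, was not analysed here): Ifit1 at chr19:34640639-34640938 (plus strand), Ifit3 at chr19:34583279-34583578 (plus strand), Igtp at chr11:58199306-58199605 (plus strand) and Irgm1 at chr11:48871371-48871670 (minus strand). Capitals mark each match, which reads TTTC, 2 bases and TTTC where it lies on the strand opposite to the gene.
Ifit1: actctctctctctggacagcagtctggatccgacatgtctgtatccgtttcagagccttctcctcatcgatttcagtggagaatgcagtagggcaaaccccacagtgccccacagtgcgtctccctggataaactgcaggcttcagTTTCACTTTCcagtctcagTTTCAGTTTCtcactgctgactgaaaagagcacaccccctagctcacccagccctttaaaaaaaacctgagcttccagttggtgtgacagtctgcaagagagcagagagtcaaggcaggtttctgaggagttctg
Ifit3: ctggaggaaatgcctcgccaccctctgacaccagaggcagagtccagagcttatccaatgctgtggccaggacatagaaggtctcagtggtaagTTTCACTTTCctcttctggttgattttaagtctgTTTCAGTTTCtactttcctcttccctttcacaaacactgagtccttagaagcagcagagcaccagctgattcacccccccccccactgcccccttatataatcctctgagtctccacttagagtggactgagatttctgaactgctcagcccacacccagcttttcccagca
Igtp: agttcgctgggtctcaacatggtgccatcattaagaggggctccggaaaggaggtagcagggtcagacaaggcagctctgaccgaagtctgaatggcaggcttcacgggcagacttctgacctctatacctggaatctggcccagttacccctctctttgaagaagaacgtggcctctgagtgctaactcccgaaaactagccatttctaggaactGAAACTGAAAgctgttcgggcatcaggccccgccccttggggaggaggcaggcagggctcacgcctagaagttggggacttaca
Irgm1: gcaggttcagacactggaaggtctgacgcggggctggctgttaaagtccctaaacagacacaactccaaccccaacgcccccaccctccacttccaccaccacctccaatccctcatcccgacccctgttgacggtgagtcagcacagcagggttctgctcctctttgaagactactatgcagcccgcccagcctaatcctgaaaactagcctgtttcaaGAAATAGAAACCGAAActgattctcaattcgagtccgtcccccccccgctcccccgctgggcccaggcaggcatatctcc
Ifit1 and Ifit3 each carried 2 separate matches on the opposite strand, starting at positions 147 and 166 and at positions 95 and 129 of the window. Irgm1 carried 2 matches that overlap, starting at positions 221 and 227, and Igtp carried 1 at position 217, directly downstream of a gamma-activated site match at position 206. Shorter stretches around the matches of 5 other members show the same core: chr3:142620594-142620623 for Gbp2 (plus strand), chr12:26456553-26456582 for Rsad2 (minus strand), chr8:71537577-71537612 for Bst2 (minus strand), chr5:92349083-92349112 for Cxcl10 (minus strand) and chr17:78882535-78882564 for Eif2ak2 (minus strand).
Gbp2: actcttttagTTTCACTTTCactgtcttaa
Rsad2: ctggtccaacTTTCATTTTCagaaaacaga
Bst2: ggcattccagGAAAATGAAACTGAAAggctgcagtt
Cxcl10: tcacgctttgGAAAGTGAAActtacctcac
Eif2ak2: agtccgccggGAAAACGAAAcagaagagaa
The gamma-activated site match of Bst2, at position 115, overlaps the first of its 2 response element matches, which themselves overlap. A match is a description of the letters in the window and not of a bound site. Members without a response element match included Ifit2, Irf7, Tap1 and Psmb9, and the windows of the last pair overlap on opposite strands.

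Seen array by array, most of the list moved together, and 2 single pools stood apart. For each array the median over the 38 members of its value minus the mean of all 18 arrays was 0.68 in 21Ex-1 and 0.60 in LP-3, with the quartiles of the members at 0.49 and 0.86 in 21Ex-1 and at 0.27 and 0.80 in LP-3. The remaining 21Ex arrays were at -0.14 and -0.04 and the remaining LP arrays at -0.35 and -0.37, so both groups were split by 1 array. The 3 MP arrays were at 0.13, 0.32 and 0.36, the only group in which every array lay above 0. The 7Ex arrays lay between -0.12 and 0.04, the 0PP arrays between -0.19 and -0.11, and the Sed/NP arrays at -0.08, -0.31 and -0.38. The median over all genes stayed within 0.03 of 0 in every array. Either 21Ex-1 or LP-3 was the highest of the 18 arrays for 33 of the 38 members, 20 in 21Ex-1 and 13 in LP-3, whereas 14.4% of all genes had their maximum in 1 of these 2 arrays. For 21 members the 2 arrays ranked first and second together, which held for 0.984% of all genes. Because members share the arrays, these counts describe the arrays and carry no test.

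**Figure D1:**
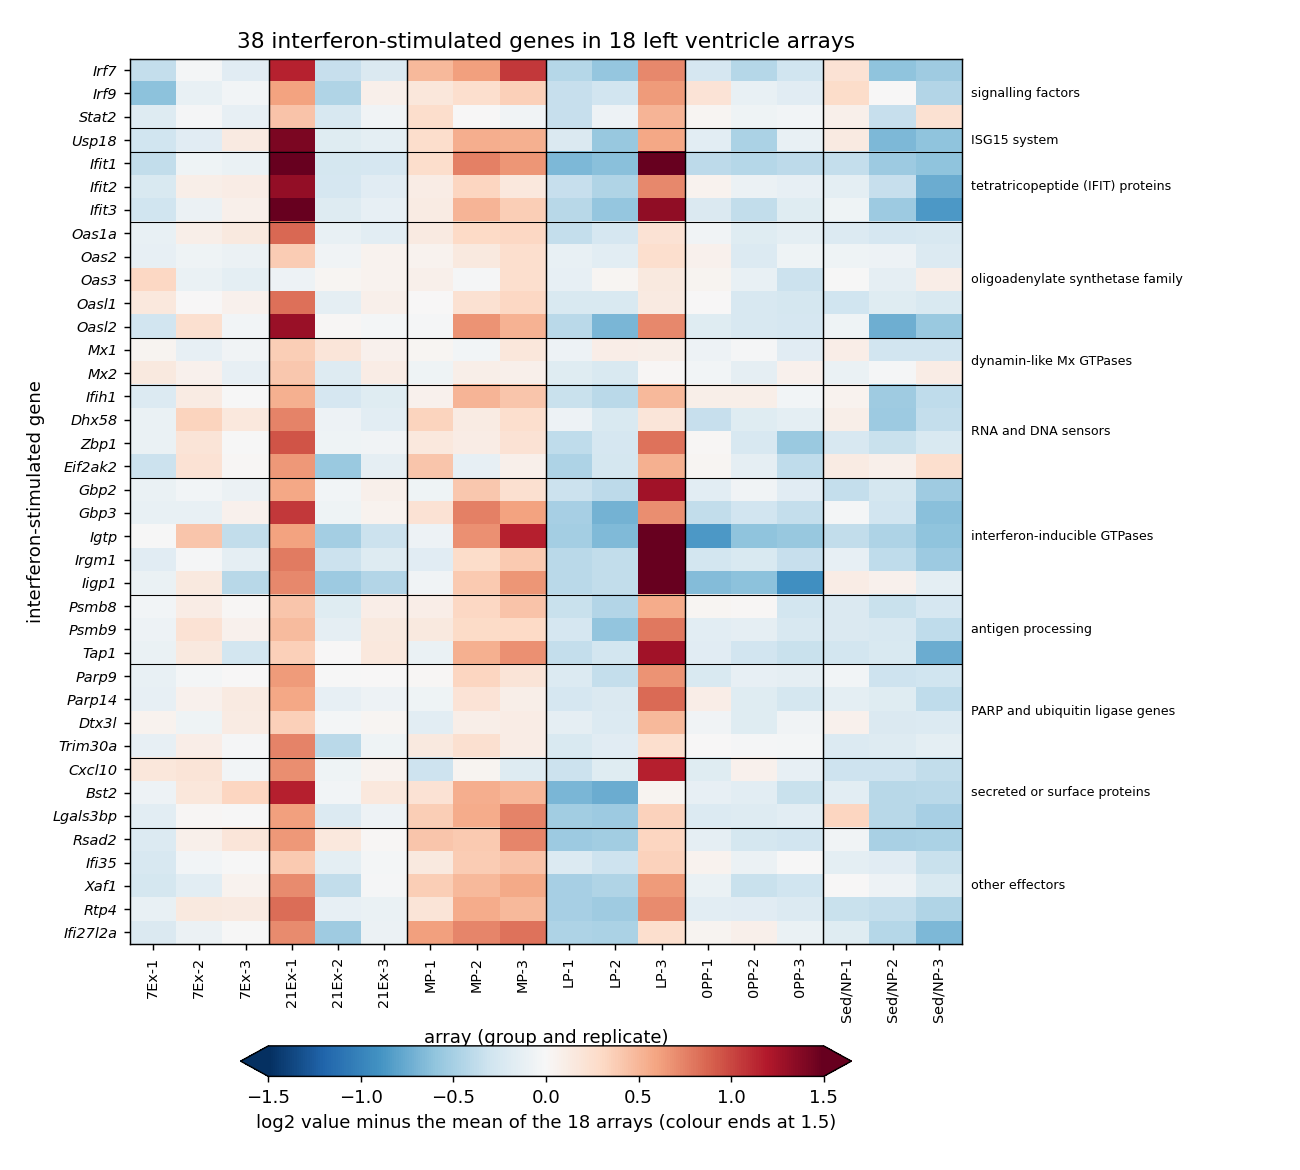
Each row is an interferon-stimulated gene, grouped by role, and each column an array; colour gives the log2 value minus the gene's mean over the 18 arrays. The columns 21Ex-1 and LP-3 are red for most rows, the 3 MP columns are moderately red, and LP-1, LP-2, Sed/NP-2 and Sed/NP-3 are mostly blue.

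**Figure D2:**
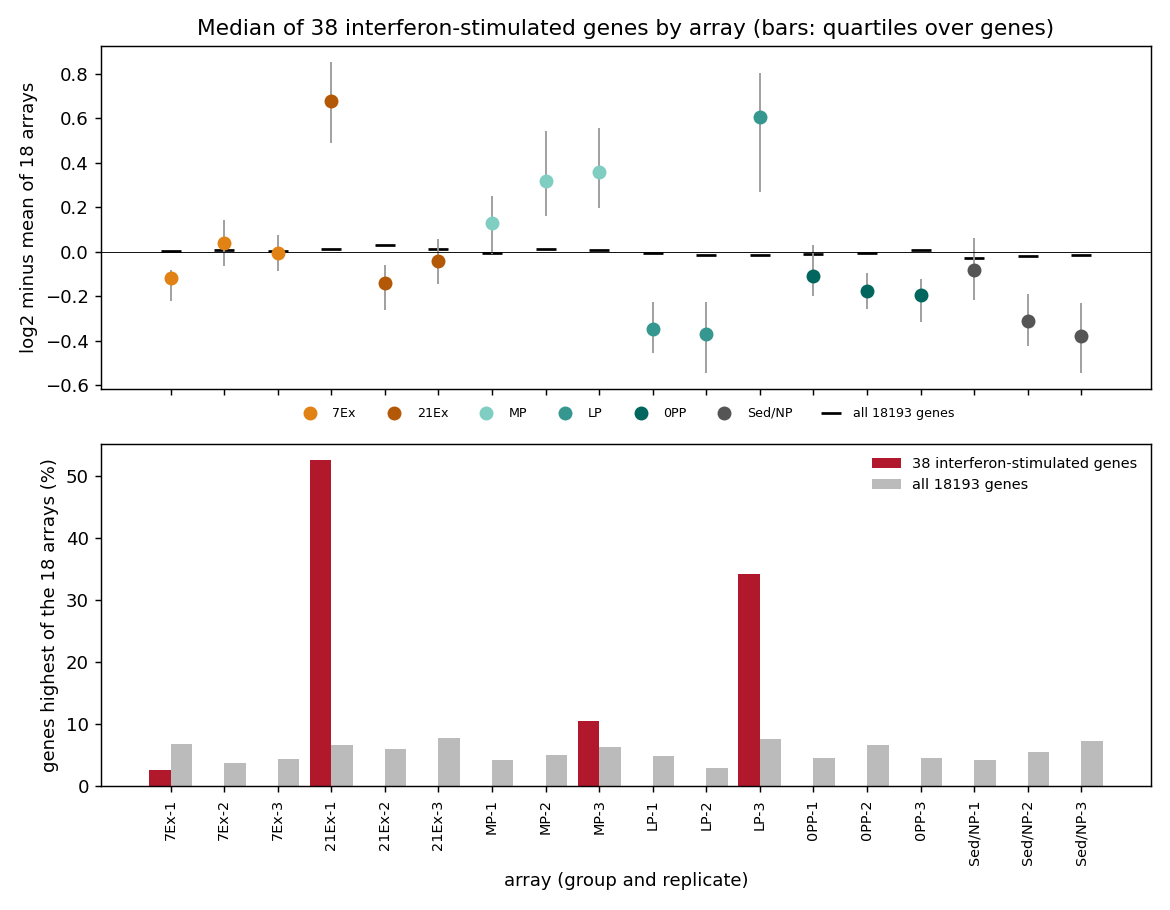
The upper panel plots the median over 38 members of the log2 value minus the mean of the 18 arrays, with bars for the quartiles over members and a dash for the median of all 18193 genes; the lower panel plots, for each array, the percent of members and of all genes that were highest there. 21Ex-1 at 0.68 and LP-3 at 0.60 are far above the other arrays of their groups, while the 3 MP arrays lie together.

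The tetratricopeptide genes, whose proteins bind foreign RNA and block its translation, gave the largest excess in 21Ex-1. Ifit1 measured 7.19, 7.49 and 7.46 in 7Ex, 9.34, 7.29 and 7.30 in 21Ex, 7.82, 8.31 and 8.21 in MP, 6.88, 6.93 and 9.14 in LP, 7.16, 7.13 and 7.16 in 0PP, and 7.20, 7.01 and 6.95 in Sed/NP. It was thus at 9.34 in 21Ex-1 and 9.14 in LP-3 and at or below 7.49 in every other array outside MP. 21Ex-1 exceeded the mean of the remaining 21Ex arrays by 2.04 (4.12-fold), and LP-3 exceeded the remaining LP arrays by 2.24 (4.72-fold). Ifit3 measured 7.49, 7.70 and 7.86 in 7Ex, 9.30, 7.59 and 7.67 in 21Ex, 7.91, 8.30 and 8.15 in MP, 7.36, 7.21 and 9.12 in LP, 7.57, 7.41 and 7.60 in 0PP, and 7.72, 7.24 and 6.92 in Sed/NP, with an excess of 1.67 in 21Ex-1 and 1.83 in LP-3. Ifit2 followed at 1.53 in 21Ex-1 and 1.12 in LP-3. Group means of these genes therefore carried wide errors: Ifit1 averaged 7.97 ± 1.18 in 21Ex and 7.65 ± 1.29 in LP, against 7.05 ± 0.13 in Sed/NP (SD, n = 3 each), and neither difference passed the test (limma, adjusted p = 0.313 for 21Ex and 0.649 for LP). In MP the 3 arrays were close, with a mean of 8.11 ± 0.26, and lay above all Sed/NP arrays for Ifit1, Ifit2 and Ifit3. The Ifit1 difference of 1.06 ± 0.48 (SE) did not pass either (adjusted p = 0.32). In the paper, which used these same arrays, Ifit1 and Ifit3 are listed among the top molecules raised in 21Ex, the group led by 21Ex-1.

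Usp18, the protease that removes Isg15 from proteins and dampens type I signalling at Ifnar2, behaved alike. It measured 6.32, 6.46 and 6.76 in 7Ex, 8.04, 6.45 and 6.48 in 21Ex, 6.88, 7.18 and 7.16 in MP, 6.41, 6.05 and 7.20 in LP, 6.46, 6.15 and 6.52 in 0PP, and 6.76, 5.96 and 6.02 in Sed/NP. The excess was 1.57 in 21Ex-1 and 0.97 in LP-3, and Sed/NP-1 stood 0.77 above the remaining Sed/NP arrays. The 21Ex and Sed/NP arrays of Usp18 overlapped, while all MP arrays were above all Sed/NP arrays (0.83 ± 0.33 SE, adjusted p = 0.247). Of the signalling factors, Irf7, the transcription factor that amplifies type I interferon production, showed an excess of 1.43 in 21Ex-1 and 1.22 in LP-3, and of 0.78 in Sed/NP-1. Irf9 and Stat2, the subunits of the complex that binds the response element, showed 0.80 and 0.58 in 21Ex-1 and 0.95 and 0.72 in LP-3.

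The interferon-inducible GTPases, which take part in defence against intracellular parasites, were highest of all 18 arrays in LP-3 for 4 of the 5 measured, Gbp3 being highest in 21Ex-1. Igtp (Irgm3) measured 8.23, 8.65 and 7.86 in 7Ex, 8.84, 7.72 and 7.91 in 21Ex, 8.16, 8.92 and 9.40 in MP, 7.73, 7.57 and 11.27 in LP, 7.38, 7.63 and 7.67 in 0PP, and 7.87, 7.77 and 7.63 in Sed/NP. LP-3 at 11.27 was 3.62 above the mean of LP-1 and LP-2, or 12.3-fold, whereas 21Ex-1 was 1.03 above its group. Iigp1 (Irga6) measured 10.12, 10.36 and 9.81 in 7Ex, 10.94, 9.67 and 9.77 in 21Ex, 10.16, 10.61 and 10.88 in MP, 9.82, 9.85 and 12.79 in LP, 9.57, 9.60 and 9.30 in 0PP, and 10.33, 10.28 and 10.07 in Sed/NP, and its excess in LP-3 was 2.95 (7.72-fold). Outside LP-3 no array was above 9.40 for Igtp or above 10.94 for Iigp1. Irgm1, a regulator of the same family, measured 7.66, 7.82 and 7.70 in 7Ex, 8.61, 7.51 and 7.64 in 21Ex, 7.67, 8.11 and 8.23 in MP, 7.43, 7.46 and 10.06 in LP, 7.55, 7.60 and 7.49 in 0PP, and 7.71, 7.46 and 7.29 in Sed/NP, with an excess of 2.62 (6.15-fold) in LP-3. Gbp2, a guanylate-binding protein, measured 7.93, 7.99 and 7.94 in 7Ex, 8.62, 7.99 and 8.11 in 21Ex, 7.97, 8.44 and 8.27 in MP, 7.71, 7.64 and 9.29 in LP, 7.88, 7.98 and 7.87 in 0PP, and 7.67, 7.77 and 7.49 in Sed/NP, with 1.62 in LP-3 and 0.57 in 21Ex-1. Gbp3 differed from these in showing similar excesses of 1.06 in 21Ex-1 and 1.303 in LP-3. For Igtp, Irgm1 and Iigp1 both LP-1 and LP-2 were within 0.5 of the Sed/NP mean. For these 5 GTPases no difference between LP and Sed/NP passed the test, and that of Igtp was 1.10 ± 0.62 (SE, adjusted p = 0.473). Gbp6, which is outside the members, did pass and is given below.

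The antigen-processing genes, like the GTPases, had a larger excess in LP-3 than in 21Ex-1. Tap1, a subunit of the peptide transporter of the endoplasmic reticulum, measured 6.49, 6.74 and 6.32 in 7Ex, 6.95, 6.60 and 6.76 in 21Ex, 6.499, 7.13 and 7.28 in MP, 6.24, 6.32 and 7.85 in LP, 6.42, 6.31 and 6.26 in 0PP, and 6.32, 6.36 and 5.85 in Sed/NP. Its excess was 1.58 in LP-3 and 0.27 in 21Ex-1. The immunoproteasome subunits Psmb8 and Psmb9 showed 0.95 and 1.21 in LP-3, against 0.46 and 0.47 in 21Ex-1. Over the 38 members the excess was larger in LP-3 for 25 and larger in 21Ex-1 for 13. Members with a larger excess in 21Ex-1 included Usp18, Ifit2, Irf7 and 3 of the oligoadenylate synthetase family (Oas1a, Oasl1 and Oasl2). The Oas enzymes make the messenger that activates RNase L, while Oasl1 lacks that activity. In that family the median excess was 0.86 in 21Ex-1 and 0.39 in LP-3, with Oasl2 at 1.31 and 1.27 and Oas3, near the floor, at -0.11 and 0.19. The difference between the 2 profiles rests on 1 array each and was not tested.

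**Figure D3:**
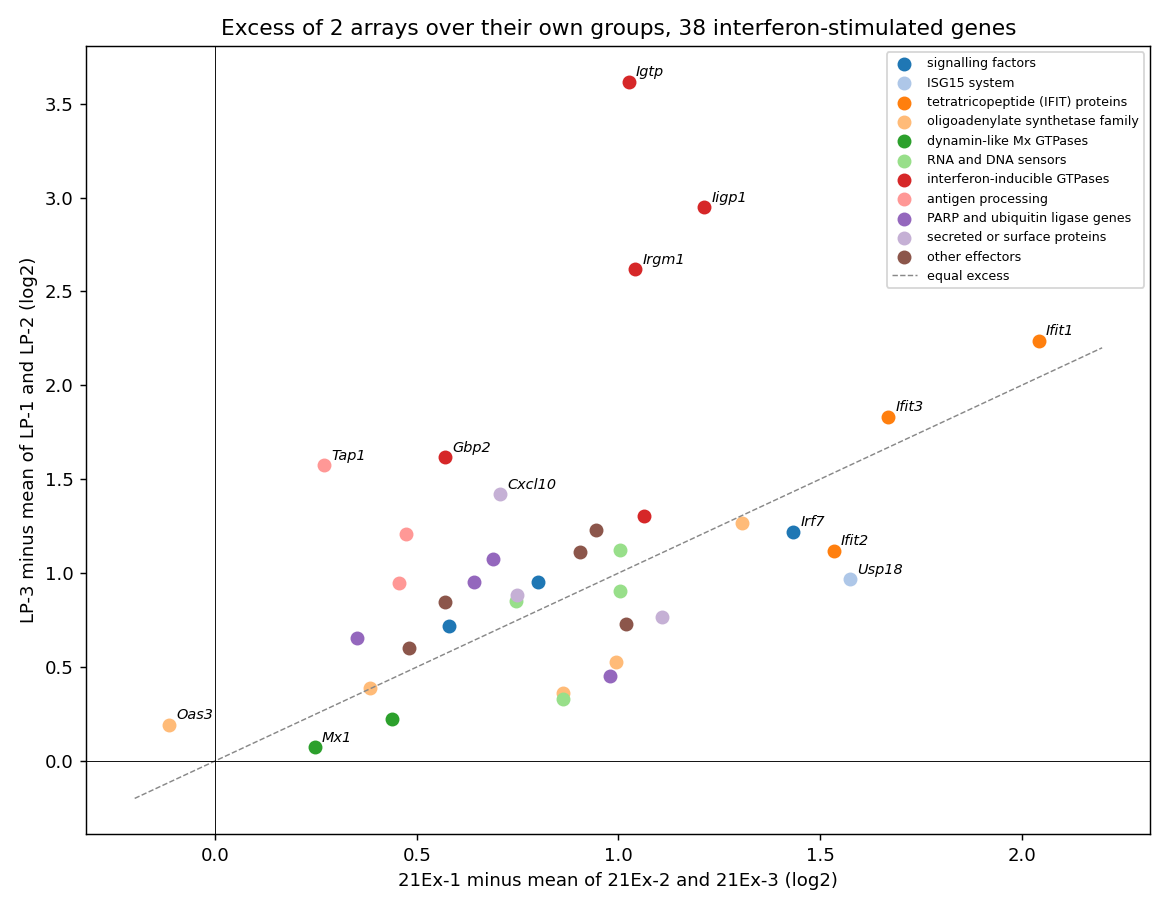
Each point is a member, placed by the log2 excess of 21Ex-1 over the mean of 21Ex-2 and 21Ex-3 (horizontal) and of LP-3 over the mean of LP-1 and LP-2 (vertical), with colour for role and a dashed line for equal excess. Igtp at 3.62, Iigp1 at 2.95 and Irgm1 at 2.62 lie far above the line, and Usp18 and Ifit2 lie below it.

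The remaining roles also lay above the mean of their groups' other arrays in 21Ex-1 and LP-3. Among RNA and DNA sensors, the excess ranged from 0.75 for Ifih1, which detects long double-stranded RNA, to 1.0 for Zbp1 and Eif2ak2 in 21Ex-1, and from 0.33 for Dhx58 to 1.13 for Zbp1 in LP-3. The PARP and ubiquitin ligase genes Parp9, Parp14 and Dtx3l showed 0.64, 0.69 and 0.35 in 21Ex-1 and 0.95, 1.08 and 0.65 in LP-3. Trim30a showed 0.98 in 21Ex-1 and 0.45 in LP-3. Of the secreted or surface proteins, Cxcl10, a chemokine that draws activated T cells, was 1.42 above its group in LP-3 and 0.71 in 21Ex-1, while Bst2, which tethers budding virus to the cell surface, was 1.11 above its group in 21Ex-1 and 0.77 in LP-3. The dynamin-like Mx1 and Mx2 showed little, 0.25 and 0.44 in 21Ex-1 and 0.07 and 0.22 in LP-3. Counted over probe sets, all 46 member probe sets with a mean of at least 5 were above the mean of the group's other arrays in 21Ex-1 and in LP-3, and of all 59 it was 53 in 21Ex-1 and 56 in LP-3. The other Gbp2 probe set (1.77 in LP-3) and the other Iigp1 probe set (3.15 in LP-3) gave values close to those of their representatives, whereas 3 further Tap1 probe sets, with means of 4.45 and below, gave none above 0.08.

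Mid-pregnancy was the state in which the list was raised in every pool. From these same arrays the paper already lists Gbp3, Irf7, Usp18, Isg15, Oasl2 and Rsad2 as raised in MP and lower afterwards. The members' median difference between MP and Sed/NP was 0.53, against 0.03 over all genes, and 37 of 38 members were higher, from -0.03 for Eif2ak2 to 1.15 for Ifi27l2a. For 29 of 38 members all 3 MP arrays lay above all 3 Sed/NP arrays, against 12.6% of all genes, and for 0 were all below (5.57%). Yet 2 members were called higher and 0 lower (limma on all 6 groups, Benjamini-Hochberg adjusted p under 0.05), where 1.17% of all genes were called higher and 0.94% lower. At an unadjusted p under 0.05 it was 22 members higher and 0 lower, against 12.7% and 10.8% of all genes, and Cyber-T called 0 lower.

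Ifi27l2a, a small interferon-induced membrane protein, was the first of the called pair. It measured 10.22, 10.34 and 10.42 in 7Ex, 11.15, 9.91 and 10.35 in 21Ex, 11.05, 11.17 and 11.25 in MP, 9.97, 9.95 and 10.69 in LP, 10.48, 10.51 and 10.34 in 0PP, and 10.25, 10.005 and 9.76 in Sed/NP. The MP arrays were tight at 11.16 ± 0.10 and stood 1.15 ± 0.23 (SE) above Sed/NP at 10.004 ± 0.25 (SD, n = 3 each, 2.22-fold, adjusted p = 0.0189). Only 21Ex-1 among the other arrays reached the MP range. Rsad2 (viperin), a radical SAM enzyme that makes a chain-terminating nucleotide, was the other. It measured 8.90, 9.18 and 9.29 in 7Ex, 9.76, 9.26 and 9.12 in 21Ex, 9.52, 9.502 and 9.84 in MP, 8.56, 8.59 and 9.42 in LP, 8.97, 8.85 and 8.82 in 0PP, and 9.06, 8.62 and 8.63 in Sed/NP. All MP arrays exceeded all Sed/NP arrays, by 0.85 ± 0.20 (SE, 1.80-fold, adjusted p = 0.0423), though 2 other Rsad2 probe sets gave 0.73 and 0.37 and were not called (adjusted p = 0.169 and 0.66). Igtp at 1.07, Ifit1 at 1.06 and Irf7 at 1.03 had larger differences than Rsad2 and did not pass, with SE of 0.62, 0.48 and 0.34.

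**Figure D4:**
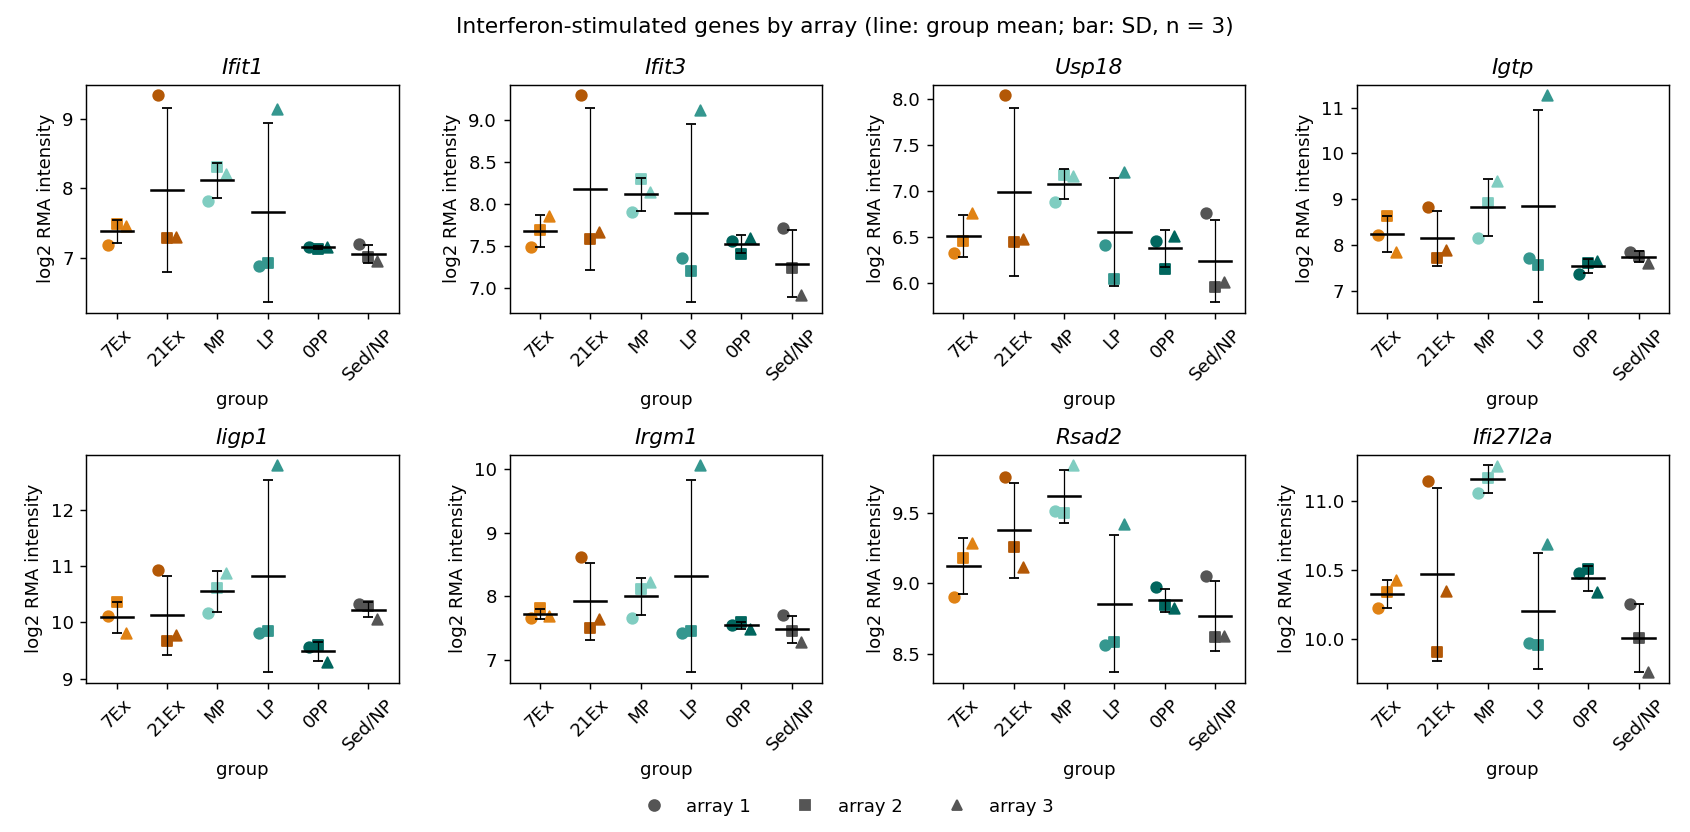
Log2 RMA intensity of 8 members in every array, by group, with marker shape for the array number, a line for the group mean and a bar for the SD (n = 3). The circle of 21Ex and the triangle of LP stand apart in most panels, and the 3 MP points lie above the Sed/NP points for Rsad2 and Ifi27l2a.

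The spread used in this test came from all 6 groups, so it was widened by 21Ex-1 and LP-3 although neither is an MP or a Sed/NP array. With only the MP and Sed/NP arrays in the fit, 8 members were called higher (Bst2, Ifi27l2a, Ifit1, Oas1a, Psmb9, Rsad2, Rtp4 and Xaf1), where 0.544% of all genes were. Without LP-3 it was 8 (1.58% of all genes), without 21Ex-1 it was 4 (1.14%), and without both it was 24 (1.67%), a setting chosen after seeing the data and from the members' own levels, so that its p-values are too small. Without Sed/NP-2, Sed/NP-3, MP-2 or MP-3 it was 0 in each case, and without 7Ex-2 or any 1 of the 0PP arrays it was 1, Ifi27l2a. With the methods' test as recomputed here (Cyber-T with a change of at least 75%) it was 9, against 0.302% of all genes. With the 3'-to-5' signal of the control genes as a covariate it was 0, with Ifi27l2a at 1.20 (adjusted p = 0.0705) and Rsad2 at 0.93 (adjusted p = 0.105). That signal, a measure of RNA integrity, was 0.673 to 0.705 in the MP arrays and 0.519 to 0.734 in the Sed/NP arrays, and its part in the MP difference was not tested beyond this covariate.

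Markers of other cells also moved with MP. In whole ventricle, more cells of a type and more RNA per cell cannot be told apart. All 9 measured macrophage and monocyte markers were above a mean of 5, and their summed linear intensity was 3319 to 3864 in MP, against 2413 to 2754 in Sed/NP, with a median difference of 0.56 over the markers. This sum was above every Sed/NP array in the other groups as well, at 2927 to 3291 in 7Ex, 3091 to 3370 in 21Ex, 2808 to 3632 in LP and 3188 to 3550 in 0PP. The summed level of the 3 measured erythroid markers was 344.7 to 556.6 in MP, against 152.9 to 178.4 in Sed/NP, with Hba-a1 and Slc4a1 near the floor. The 3 measured adipocyte markers summed to 155.2 to 315.7 in MP, against 104.4 to 134.3 in Sed/NP, with Adipoq and Lep at means below 5. Adipoq was at 7.42, 6.27 and 5.05 in MP, against 3.27, 4.22 and 3.87 in Sed/NP. Retn was at 7.02, 6.74 and 6.76 in MP, against 6.37, 6.66 and 6.49 in Sed/NP. Lep, at 3.85, 3.69 and 3.74 in MP, against 3.62, 3.89 and 3.86 in Sed/NP, overlapped. B cell markers (4 measured, all below 5) summed to 70.1 to 74.1 in MP and 72.1 to 75.7 in Sed/NP. The cardiomyocyte markers, all 7 far above the array median, summed to between 135100 and 142300 in every array. The part of the macrophage, erythroid and adipocyte markers in the MP difference was not tested.

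Late pregnancy, set against mid-pregnancy, gave lower values for 32 of the 38 members, with a median difference of -0.24 against -0.02 over all genes. Ifi27l2a was the 1 member called lower and 0 were called higher, where 1.03% and 1.53% of all genes were called. Ifi27l2a averaged 10.20 ± 0.42 in LP and 11.16 ± 0.10 in MP (SD, n = 3 each), a difference of -0.95 ± 0.23 (SE, adjusted p = 0.0405), and all 3 LP arrays including LP-3 lay below all MP arrays. This also held at the representative probe sets of Bst2, Lgals3bp and Rsad2, 4 members in all, against 13% of all genes. It did not hold at the other Rsad2 probe sets. At one, LP-3 was at 8.30, against 8.02, 8.29 and 8.49 in MP. At the other, LP-3 was at 8.10, above 7.64, 7.57 and 7.77 in MP. At its representative, Rsad2 averaged 8.86 ± 0.49 in LP and 9.62 ± 0.19 in MP, a difference of -0.76 ± 0.20 (SE) that did not pass (adjusted p = 0.0635). Without LP-3 the median difference was -0.58 and 9 members were called lower (Bst2, Gbp3, Ifi27l2a, Lgals3bp, Psmb8, Psmb9, Rsad2, Rtp4 and Xaf1), where 0.577% of all genes were. Without 21Ex-1 it was 3 (1.01%), without 21Ex-2 it was 2, and with only the LP and MP arrays in the fit 0 members were called lower or higher (0.121% of all genes in each direction), with Ifi27l2a at an adjusted p of 0.0872. At an unadjusted p under 0.05 it was 0 higher and 8 lower (12.3% and 11.1% of all genes), and Cyber-T called 2 lower, Bst2 and Ifi27l2a, and 0 higher, against 0.17% and 0.148% of all genes. The call for Ifi27l2a was also lost without any 1 of 12 arrays, namely Sed/NP-2, 7Ex-2, 7Ex-3, 21Ex-3, LP-1, LP-2 and each MP and 0PP array (adjusted p of 0.0509 to 0.173). Markers moved here too: the erythroid sum was 115.9 to 149.4 in LP, against 344.7 to 556.6 in MP, the adipocyte sum 122.8 to 148.8 in LP, against 155.2 to 315.7 in MP, and the macrophage sum 2808 to 3632 in LP, against 3319 to 3864 in MP, with LP-3 the highest of LP. Their part in the LP difference was not tested.

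**Figure D5:**
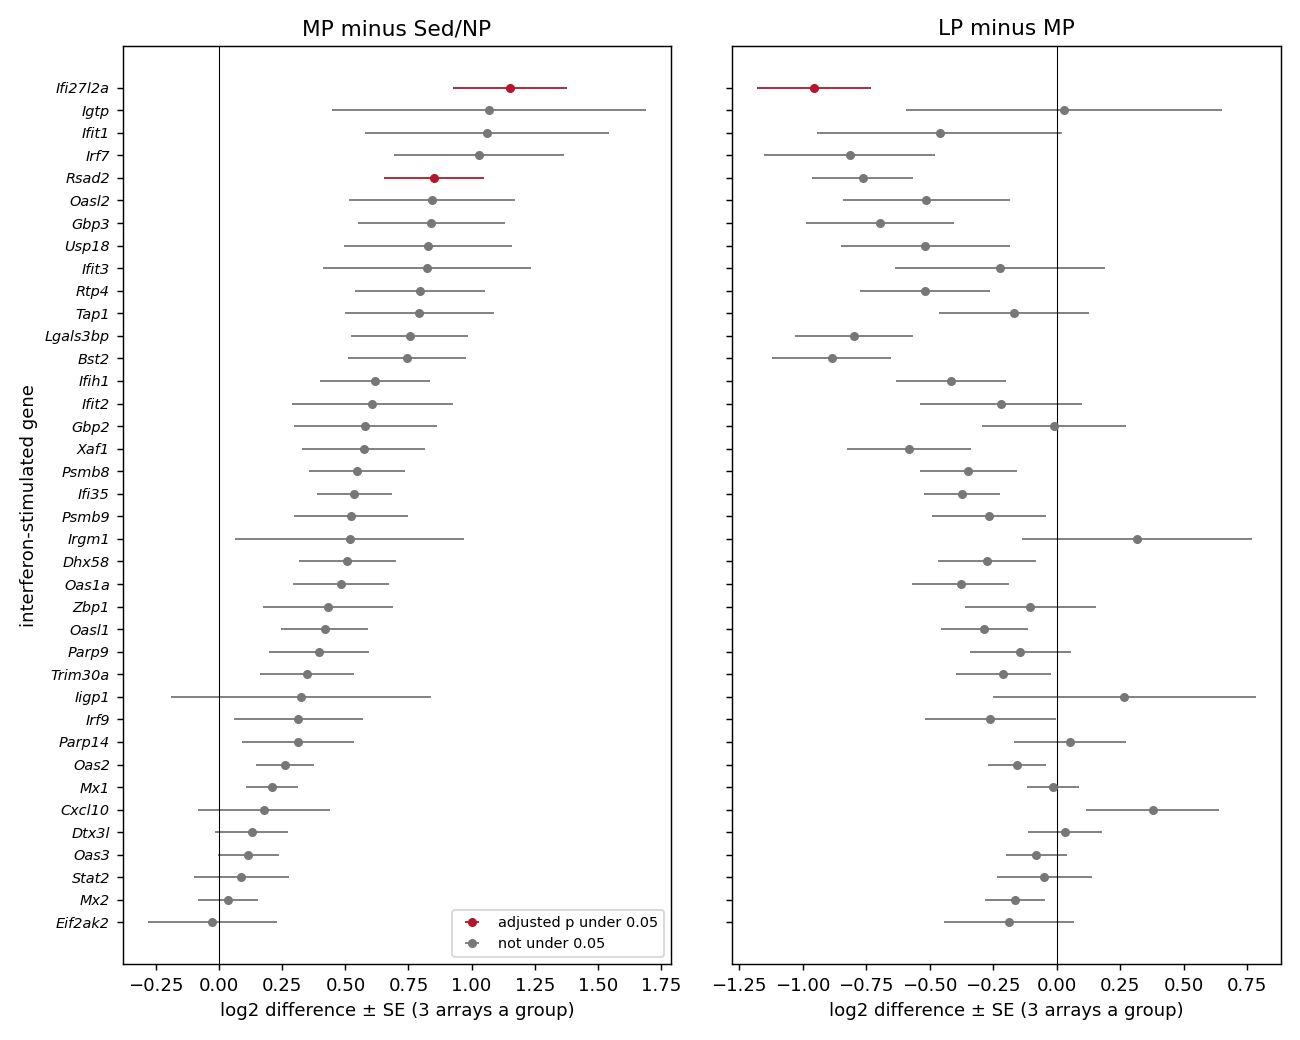
Log2 differences of the 38 members with their SE (limma, 3 arrays a group), MP minus Sed/NP on the left and LP minus MP on the right, in the order of the left panel; red marks an adjusted p under 0.05. All members but Eif2ak2 lie above 0 on the left, and all but 6 lie below 0 on the right.

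Against Sed/NP, LP had 0 members called in either direction, where 2.2% of all genes were called higher and 0.77% lower, and for 0 members did the groups separate, against 11% (above) and 7.68% (below) of all genes. At an unadjusted p under 0.05 it was 3 members higher and 0 lower (13.4% and 9.67% of all genes), and Cyber-T called 0. The direction of the median hung on LP-3: it was 0.20 with all LP arrays and -0.07 without LP-3, and 0.31 without Sed/NP-1. In LP-3 the summed level of the 5 measured neutrophil markers was 294.6, 1.83 times the mean of LP-1 and LP-2, and that of the 9 macrophage markers was 3632, 1.21 times, with 4 of the 5 neutrophil and 5 of the 9 macrophage markers highest of the group there. The neutrophil sum rested on S100a8 and S100a9, at 6.60 and 6.53 in LP-3, while Mpo, Csf3r and Ngp were at 5.02, 5.15 and 5.23. In 0PP-1 the neutrophil sum was 257.0 and S100a9 was at 6.53, with the members' median at -0.11. T and NK cell markers, 6 of 9 below 5, were at 1.02 times and B cell markers at 0.98 times. In 21Ex-1 the same ratios were 0.90 for neutrophil, 0.96 for macrophage, 0.91 for T and NK cell, 0.97 for B cell and 1.06 for plasmacytoid dendritic cell markers, with 0 neutrophil and 0 macrophage markers highest there. Of the 4 measured plasmacytoid dendritic cell markers, 3 were below 5, and the sum rested on Tcf4, at 10.32 in 21Ex-1. Their ratio in LP-3 was 0.94. The part of the neutrophil and macrophage markers in the LP-3 values was not tested. The 3'-to-5' signal was 0.563 in 21Ex-1 and 0.627 in LP-3, inside the range of the other arrays.

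After delivery the list was near the control level. The median difference between 0PP and Sed/NP was 0.08, or 0.18 without Sed/NP-1, with the macrophage sum above every Sed/NP array, and 0 members were called in either direction, where 3.07% of all genes were called higher and 0.792% lower. Before adjustment, 1 was higher and 2 lower at p under 0.05 (17.7% and 12.9% of all genes), and Cyber-T called 0. All 3 0PP arrays lay above Sed/NP for 8 members (15.2% of all genes) and below for Eif2ak2 and Iigp1 (8.35%). Iigp1 averaged 9.49 ± 0.17 in 0PP and 10.23 ± 0.14 in Sed/NP (SD, n = 3 each), a difference of -0.74 ± 0.52 (SE, adjusted p = 0.487), in which the SE carries the spread of LP-3. With only these 2 groups in the fit Iigp1 was called lower (0.506% of all genes were), as it was without 21Ex-1 and LP-3 (0.748%). Between 0PP and LP, 0 members were called, where 1.05% of all genes were higher and 0.588% lower. Without adjustment, 0 members were higher and 2 lower at p under 0.05 (9.55% and 7.52% of all genes), and Cyber-T called 0. The median difference between 0PP and LP was -0.13 with all arrays and 0.19 without LP-3, and Iigp1 was the 1 member below LP in all 3 arrays (8.06% of all genes).

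In the exercise groups most members sat slightly above the control, as did the macrophage sum given above, whose part was not tested. After 7 days the median difference was 0.27, 33 of 38 members were higher and 0 were called, where 0.874% of all genes were called higher and 0.39% lower. Without adjustment p was under 0.05 for 1 higher and 0 lower (13.2% and 9.57% of all genes), and Cyber-T called 0. All 3 7Ex arrays lay above Sed/NP for 11 members, among them Oas1a, Gbp2, Cxcl10 and Bst2, against 12.8% of all genes, and below it for 0 (5.56%). The largest 7Ex difference, that of Igtp, was 0.49 ± 0.62 (SE).

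After 21 days the median difference was 0.43, which was 0.14 without 21Ex-1. All 3 21Ex arrays lay above Sed/NP for 17 members, against 18.7% of all genes, and below it for 0 (5.98%). Only Eif2ak2 was called higher and 0 members lower, where 2.98% and 2.21% of all genes were called. At an unadjusted p under 0.05 it was 19 higher and 0 lower, against 20.2% and 12.8% of all genes, and Cyber-T called 1 higher and 0 lower. Eif2ak2 encodes the kinase PKR, which halts translation on double-stranded RNA, and its probe sets disagreed. The called one measured 4.98, 5.02 and 5.29 in 7Ex, 6.01, 5.20 and 4.87 in 21Ex, 4.81, 5.18 and 4.87 in MP, 4.48, 4.51 and 4.87 in LP, 4.59, 4.73 and 4.88 in 0PP, and 4.62, 4.65 and 3.91 in Sed/NP. It was low, with a mean of 4.86, and averaged 5.36 in 21Ex and 4.39 in Sed/NP, a difference of 0.97 ± 0.23 (SE, adjusted p = 0.0313). Sed/NP-3, at 3.91, was the lowest of all 18 arrays. The representative measured 6.32, 6.86 and 6.66 in 7Ex, 7.30, 6.08 and 6.51 in 21Ex, 7.06, 6.53 and 6.72 in MP, 6.18, 6.38 and 7.18 in LP, 6.68, 6.51 and 6.26 in 0PP, and 6.77, 6.73 and 6.90 in Sed/NP. At this brighter probe set the difference was -0.17 ± 0.26 (SE, adjusted p = 0.79), and its sign turned to 0.11 without 21Ex-2. The remaining one, with a mean of 6.23, measured 6.81, 6.22 and 6.23 in 21Ex, against 6.37, 6.18 and 5.90 in Sed/NP, a difference of 0.27 ± 0.15 (SE, adjusted p = 0.334) in the direction of the call but with overlap. The call was absent where probe sets with a mean under 5 were left out and without 21Ex-1, 21Ex-2, Sed/NP-2 or Sed/NP-3. With only the 21Ex and Sed/NP arrays in the fit 0 members were called higher or lower (0.715% and 1.47% of all genes). Without LP-3, 4 members were called higher in 21Ex (Cxcl10, Eif2ak2, Gbp2 and Rsad2), where 3.53% of all genes were. Without Sed/NP-1 it was 2 (Eif2ak2 and Mx1), a setting for which the share of all genes is not given. Mx1 was near the floor, with a mean of 4.06, and the array left out was its highest control (4.15, against 3.77 and 3.77).

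Between 21Ex and 7Ex, 36 of 38 members were higher in 21Ex, with a median difference of 0.17, and 0 were called, where 0% of all genes were called higher and 0.0055% lower. Before adjustment, p was under 0.05 for 4 members higher and 0 lower (6.61% and 5.12% of all genes), and Cyber-T called 0. Without 21Ex-1 the median was -0.08, the opposite direction. Only Oas2 and Mx1 were above 7Ex in all 3 21Ex arrays, against 10.6% of all genes, and 0 were below (4.57%).

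The pathway around the members was followed in lists of its other genes. These lists were chosen with earlier results of these data known, so calls within them are a description and not independent evidence. None of the 7 measured ligand genes, Ifnb1 and Ifng among them, reached a mean of 5, and their median excess was -0.16 in 21Ex-1 and 0.11 in LP-3, which leaves their levels unresolved in these arrays. The 1 ligand called, Ifna5, was lower in 7Ex by 0.54 at a mean under 5. All 6 receptor genes were above 5 with median excesses of 0.04 in both pools. Of these, Ifnar1 was higher in 21Ex (0.31 ± 0.08 SE, adjusted p = 0.0462), Ifnar2 was higher in 21Ex and 0PP at 1 of its probe sets (0.64 and 0.49, adjusted p = 0.0161 and 0.0445), and Ifngr2, a chain of the interferon gamma receptor, was lower in MP. Ifngr2 measured 9.65, 9.13 and 9.02 in MP, against 10.21, 9.98 and 9.999 in Sed/NP, a difference of -0.80 ± 0.17 (SE, adjusted p = 0.0271) with no overlap between the groups.

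Of 9 measured JAK-STAT genes 0 were called in any comparison, and their median excess was 0.05 in 21Ex-1 and 0.11 in LP-3. Among them Socs3, a feedback inhibitor of cytokine receptors, was picked out after its values were seen: it was 1.54 above its group in LP-3 and 0.02 in 21Ex-1, and measured 6.36, 6.12 and 7.78 in LP, against 6.49, 6.23 and 6.26 in Sed/NP. Irf1, the factor first induced by interferon gamma, chosen in the same way, was 0.90 above its group in LP-3 and 0.13 in 21Ex-1. Of 6 measured interferon regulatory factors outside the members, Irf1 among them, 0 were called. The median excess of the 6 was -0.06 in 21Ex-1 and 0.05 in LP-3, with LP-3 the highest LP array for 3. Of 12 measured sensor and adaptor genes, Ddx58 (RIG-I) was called higher in 21Ex and in MP at 1 probe set (0.63 and 0.57, adjusted p = 0.0155 and 0.0231) and Sting1 in 21Ex at a dim one (0.47, adjusted p = 0.0309). Of 4 measured genes for the attachment of Isg15, Ube2l6, the conjugating enzyme, measured 6.05, 5.25 and 5.23 in 21Ex, 5.93, 5.72 and 6.02 in MP, and 4.95, 4.88 and 4.53 in Sed/NP. It was higher in 21Ex (0.72 ± 0.19 SE, adjusted p = 0.0478), where 21Ex-1 led, and in MP (1.10 ± 0.19 SE, adjusted p = 0.00934), where all 3 arrays took part.

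Another 46 measured interferon-stimulated genes outside the 38 had median excesses of 0.47 in 21Ex-1 and 0.45 in LP-3. The group's highest value was in 21Ex-1 for 38 of them and in LP-3 for 41, against 31.0% and 34.6% of all genes. Mov10 was below its group in both pools (-0.14 in 21Ex-1 and -0.19 in LP-3), and Ifi27 and Ifitm1 were below it in 21Ex-1 (-0.17 and -0.13), these 3 being named after their values were seen. In 21Ex, Ifitm2, Ly6e and Lgals9 were called higher (0.38, 0.44 and 0.65, adjusted p = 0.0415, 0.0305 and 0.0471), where 2.98% of all genes were. In MP, 3 were called higher (Ifi27, Ifitm2 and Helz2) and 0 lower, where 1.17% and 0.94% of all genes were. Ifi27 measured 9.51, 9.34 and 9.83 in MP, against 9.17, 8.37 and 8.60 in Sed/NP, a difference of 0.85 ± 0.17 (SE, adjusted p = 0.019), and was lower in LP than in MP by 0.71 (adjusted p = 0.0392), as were Ifitm2 by 0.47 and Ifitm3 by 0.61. In LP against Sed/NP, 3 were called higher, where 2.2% of all genes were. They were Gbp6 by 1.58 (adjusted p = 0.0116), Ifi207 by 1.25 (adjusted p = 0.00553) and Ms4a6d by 1.04 (adjusted p = 0.0276). The paper, from these same arrays, already lists Ms4a6d and Mpa2l, an earlier symbol of Gbp6, among genes raised through pregnancy. Gbp6 measured 9.78, 9.47 and 11.12 in LP, against 9.004, 8.499 and 8.15 in Sed/NP, above the controls in LP-1 and LP-2 as well as in LP-3. Among 9 measured genes of the immunoproteasome and MHC class I, LP-3 was the highest LP array and 21Ex-1 the highest 21Ex array for all 9, with median excesses of 0.59 in LP-3 and 0.10 in 21Ex-1. B2m, the shared light chain of MHC class I, was called higher in MP (0.60 ± 0.11 SE, adjusted p = 0.0138) and lower in LP than in MP (-0.56 ± 0.11 SE, adjusted p = 0.0129), and H2-D1 was called higher in MP at 1 probe set (0.57, adjusted p = 0.0298).

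Most members resembled each other closely across arrays. After group means were removed, each member's Pearson correlation with the mean of the other members over the 18 arrays had a median of 0.92, against -0.03 for genes outside the list, and 31 of 38 were over 0.8, against 0.347% of other genes. These points share their arrays and the 2 high pools, so they are given as a description. Without those pools, over 16 arrays and with group means left in, the median was 0.87. In that setting 26 of 38 were over 0.8, against 0.231% of other genes. Low values there included Cxcl10 at 0.28, Stat2 at 0.29 and Eif2ak2 at 0.32. Over all 18 arrays with group means left in the median was 0.88 and the lowest, that of Oas3, was 0.25. Outside the list, the genes most like the members' mean over the 18 arrays were Rnf213 (r = 0.96), Nlrc5 (0.93), Trim12c (0.91), Trim30d (0.90), Ifi47 (0.89), Gbp7 (0.89), Irgm2 (0.89), Phf11d (0.88), Apod (0.88) and Tlr3 (0.88). Of these 10, Rnf213, Nlrc5, Ifi47, Gbp7, Irgm2, Phf11d and Tlr3 were on the pathway lists. Irgm2, a paralog of Irgm1, measured 8.38, 7.05 and 7.44 in 21Ex, 7.27, 7.06 and 9.92 in LP, and 7.41, 7.19 and 6.93 in Sed/NP, with LP-3 2.75 above its group. Nlrc5, the activator of MHC class I transcription, was 1.96 above its group in LP-3 and 0.81 in 21Ex-1.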

How the data were processed

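Left ventricular RNA was hybridised to Affymetrix whole-genome mouse arrays, 18 in all, and the deposited table held log2 values that the authors made by RMA across all arrays in R, with no further scaling here. Of 45101 probe sets, 64 controls were left out. The rest, 34945 of them annotated to 1 gene, 932 to several and 9160 to none, entered 1 limma fit (version 3.58.1, R 4.3.3) with a mean for each of 6 groups, 12 residual and 6.452 prior degrees of freedom, and Benjamini-Hochberg adjustment over 45037 probe sets for each of 8 comparisons. A gene was called where any single-gene probe set had an adjusted p under 0.05. The fit was tested on simulated data. The number of arrays, 3 a group, limits the precision, and p-values measure the spread between pools. The 5 comparisons with Sed/NP share its 3 arrays.

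The members and the pathway and marker lists were chosen with earlier results of these data known. Members named in full were those called at any probe set and the 8 with the largest SD within a group. Alternatives were the probe set rule, the methods' Cyber-T test (posterior probability of at least 0.95 and a 75% change), only the compared groups, an intensity trend, a minimum mean of 5, repeated quantile normalization, median centring, a replicate block, a 3'-to-5' covariate and each array left out. Cyber-T was recomputed here, so its calls can differ from those printed in the paper. Leaving out 21Ex-1 and LP-3, alone as a pair or with Sed/NP-1, was added after seeing the data. The correlation of deviations from the group means was computed for the 8 comparisons only. Among these it was over 0.1 for every pair of same-numbered arrays only for 0PP and Sed/NP (0.127, 0.117 and 0.179). The labels give no pairing of these arrays, so any pairing rests on the data alone. No pair of arrays was identical (highest correlation 0.997).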

Additional observations from a re-analysis of the deposited data

Results flagged for a closer look

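The change in Ifi27l2a across pregnancy differed between stages, by a test of the difference itself. It was 0.20 in LP and 1.15 in MP relative to the same Sed/NP arrays, and the difference between these stages was -0.95 ± 0.23 (SE, limma, adjusted p = 0.0405), lower in 3 of 3 LP arrays than in every MP array. This p rose to 0.0872 with only the LP and MP arrays in the fit, 0.138 with the 3'-to-5' covariate and 0.0534 with a replicate block, and to between 0.0509 and 0.173 without any 1 of 12 of the 18 arrays.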

How the results depend on the processing

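Counts of members called were small and moved with the processing. The share of all genes called moved too: for lower in LP than in MP it was 1.03%, 0.121% with only the compared groups and 0.17% with Cyber-T. For the probe set rules, trend, minimum mean, normalizations, covariate, block and most single arrays left out, that share is not given. Counts under those settings do not show whether the members or the whole array moved. The 1 member higher in 21Ex than in Sed/NP became 0 with the probe set of highest mean only, with the mean of a gene's probe sets, with only the compared groups and with a minimum mean of 5, and 2 with repeated quantile normalization or median centring. The 2 higher in MP than in Sed/NP became 1 with the mean of probe sets, 9 with Cyber-T, 8 with only the compared groups and 0 with the 3'-to-5' covariate. The 1 lower in LP than in MP became 2 with Cyber-T or a minimum mean of 5, 3 with an intensity trend or repeated quantile normalization, and 0 with only the compared groups or the covariate. With only the compared groups, 1 was lower in 0PP than in Sed/NP. The cause was not tested.

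Leaving out each array in turn gave 0 to 4 higher in 21Ex, 0 to 8 higher in MP and 0 to 9 lower in LP than in MP, with the highest count without LP-3 in each case. Without LP-3, 3.53%, 1.58% and 0.577% of all genes were called in these 3 comparisons. Without 21Ex-1 and LP-3 the counts, each with the share of all genes called, were 1 higher in 7Ex (0.863%), 0 higher in 21Ex (1.45%), 24 higher in MP (1.67%), 1 lower in 0PP (0.748%) and 19 lower in LP than in MP (0.709%). Without Sed/NP-1 as well they were 1 (0.83%), 0 (0.792%), 23 (1.36%), 1 (1.4%) and 21 (0.748%), with 3 higher in 0PP (5.11%). These arrays were chosen from the members' own levels, so those p-values are too small. Eif2ak2 at its representative ranged between -0.50 and 0.11 in 21Ex, the last without 21Ex-2 (adjusted p = 0.877).

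In the labels, arrays of different groups share only a replicate number. With that number as a replicate block, 1 member was higher in MP (Rsad2 at adjusted p = 0.0562) and 0 were lower in LP than in MP (Ifi27l2a at adjusted p = 0.0534), and no other count of members changed.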
